A study of Homo sapiens with 6 samples.

Results

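A set of 10 genes of mucus and its secreting cells was followed in T3M4, an established human pancreatic ductal adenocarcinoma cell line. They are the gel-forming mucins MUC2, MUC5AC, MUC5B and MUC6, the trefoil factors TFF1, TFF2 and TFF3, and the goblet cell products AGR2, SPINK4 and REG4. All 10 were found by symbol among the 58735 genes of the deposited count table, and 7 of them had enough reads to be tested. RNA-seq gave 3 libraries titled T3M4WT, whose genotype label reads MUC16 expressing, and 3 titled T3M4M16, labelled MUC16 knockout. None was treated. The labels do not say how the knockout was made or whether it is 1 clone. Nor do they say that replicates were grown apart, so the p-values reflect the spread between these libraries, possibly a technical one.

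Gel-forming mucins are very large secreted glycoproteins that link through disulfide bonds into the polymer network of mucus. Trefoil factors are small secreted peptides that mucous cells release together with mucins and that are known for their part in mucosal repair. AGR2 is a protein disulfide isomerase of the endoplasmic reticulum needed for MUC2 production in the gut, SPINK4 is a Kazal-type serine protease inhibitor of goblet cells, and REG4 is a secreted C-type lectin. In the healthy pancreas the ducts make little gel-forming mucin, whereas precursor lesions of pancreatic cancer commonly express MUC5AC, and MUC2 marks intestinal-type lesions.

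Library totals ran from 19088927 to 28612621 counts. MUC16, the targeted gene, had 98, 144 and 90 counts in the WT libraries and 292, 504 and 323 in the libraries labelled knockout, so at the RNA level it went against the labels (log2 fold change 1.79 ± 0.17, SE, adjusted p = 4.79e-09 by edgeR's quasi-likelihood test with Benjamini-Hochberg adjustment). Whole-gene counts also include transcripts that carry an edit, and the edited stretch is not given in the labels. Every direction here is that of the libraries labelled knockout against WT. Whether the labels of the groups were exchanged was not tested, and an exchange would turn every rise and fall given here, the order of MUC5AC and MUC5B included. Of 16655 genes tested, 52.6% passed an adjusted p of 0.05, with 26.7% higher and 25.9% lower, and the values of the groups did not overlap for 59% of them. A single called gene or a pair of groups that do not overlap was therefore common in this comparison. As to cell identity, ductal keratins were abundant (KRT19 at 1339 ± 56.4 CPM in WT), while the ductal chloride channel CFTR, with 8 counts over all libraries, was near the floor.

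Of the 7 tested genes, 3 rose (SPINK4, MUC5B and AGR2), 2 fell (MUC5AC and MUC2) and 2 did not pass (TFF1 and TFF2). A rise of at least 2-fold past the test was seen in 2 of them, SPINK4 and MUC5B, against 7.52% of all genes tested. MUC6, TFF3 and REG4 were too low to test. The median log2 fold change of the 7 was 0.48, the value of AGR2, in a range from -0.70 to 2.83. Over all genes tested the median was 0.00, but under 1 CPM, where TFF1 and TFF2 lay, it was 0.22. At 1 to 4 CPM, the level of MUC5AC and MUC5B, it was 0.26. The groups did not overlap for 6 of the 7, TFF2 being the exception. Levels are given as CPM (a gene's counts relative to the library total, scaled by TMM factors), with SD over 3 libraries, and the plot of levels by library shows all 10 genes.

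**Figure D1:**
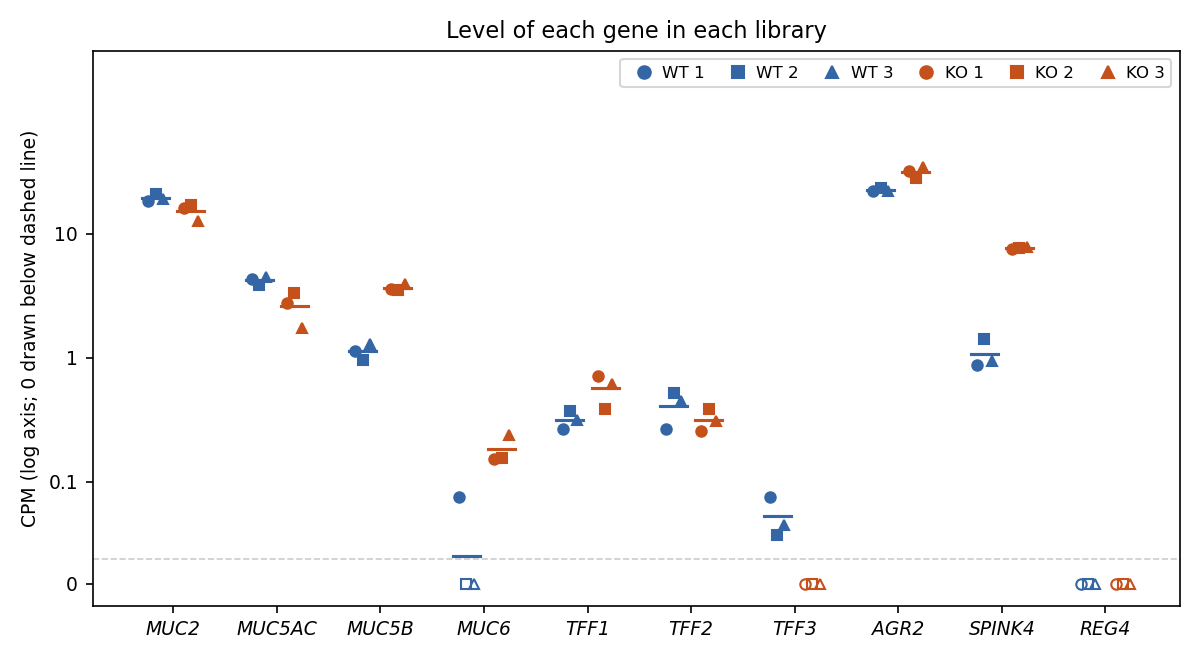
CPM of each gene in each of the 6 libraries on a log axis, with WT in blue and the libraries labelled knockout in orange. Lines are group means, and open symbols below the dashed line are libraries with 0 counts. SPINK4 and MUC5B lie higher in every library labelled knockout, MUC2 and MUC5AC lower, and REG4 is at 0 throughout.

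Sequence upstream of the start was at hand for 4 of the 10 genes (RefSeq, GRCh38.p14), and 3 are shown because they stand for both directions: SPINK4 and AGR2, which rose, and MUC2, which fell. Each is the 250 bases before the RefSeq start, 5′ to 3′ on the gene's strand; for SPINK4 and AGR2 that start lies inside the longer GENCODE span given further on. They lie at chr9:33239917-33240166 on the plus strand for SPINK4, chr7:16805000-16805249 on the minus strand for AGR2 and chr11:1074624-1074873 on the plus strand for MUC2. Capitals mark matches, on either strand, to any of 6 short motifs: TATAAA for the core promoter box, AGATAA for zinc finger factors of the GATA family, TGTTTAC for forkhead factors, ACGTG for the core of the hypoxia response element, CATTCC for the TEAD factors and TGACTCA for the AP-1 factors.
SPINK4: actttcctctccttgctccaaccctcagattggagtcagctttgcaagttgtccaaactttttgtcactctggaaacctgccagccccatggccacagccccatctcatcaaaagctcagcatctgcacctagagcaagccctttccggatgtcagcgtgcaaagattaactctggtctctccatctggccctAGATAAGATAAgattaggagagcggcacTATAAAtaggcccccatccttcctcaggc
AGR2: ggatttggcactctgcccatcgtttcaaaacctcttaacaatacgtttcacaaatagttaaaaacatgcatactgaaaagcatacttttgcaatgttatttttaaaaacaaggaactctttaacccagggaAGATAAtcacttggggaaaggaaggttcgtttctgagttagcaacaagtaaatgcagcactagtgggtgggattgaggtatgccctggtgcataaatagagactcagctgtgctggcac
MUC2: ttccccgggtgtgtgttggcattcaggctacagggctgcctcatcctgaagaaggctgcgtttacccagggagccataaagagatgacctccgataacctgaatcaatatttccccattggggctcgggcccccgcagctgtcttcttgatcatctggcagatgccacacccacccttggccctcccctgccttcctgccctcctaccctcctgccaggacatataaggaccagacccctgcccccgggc
The SPINK4 window held TATAAA 29 bases before the start and 2 overlapping AGATAA matches at 57 and 52 bases. The AGR2 window held 1 AGATAA, 119 bases before the start, and none of the 6 motifs stood in the MUC2 window. REG4, whose window is not shown, had 0 counts in every library. Its window held TATAAA at 31 bases, AGATAA at 122 and ACGTG at 241, so these matches were not confined to genes that rose. Among 35116 windows of this length, TATAAA was in 10.7%, AGATAA in 9.17%, TGTTTAC in 2.98%, ACGTG in 18.5%, CATTCC in 11.9% and TGACTCA in 4.2%. A match describes these letters only. Of the GATA factors listed for mucous cells, GATA5 was higher (0.534 ± 0.107 to 1.39 ± 0.263 CPM), GATA4 lower (4.79 ± 0.352 to 3.49 ± 0.0817 CPM) and GATA6 did not pass (log2 fold change -0.05 ± 0.07, SE).

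MUC2, the gel-forming mucin of the intestine, carried most of the gel-forming mucin reads. MUC2 (ENSG00000198788, GRCh38 chromosome 11, 1074875 to 1110511, plus strand) had 489, 563 and 430 counts in WT replicates 1 to 3 and 318, 439 and 372 in knockout-labelled replicates 1 to 3. In CPM these were 18.6, 20.9 and 19.3 against 16.3, 17.1 and 12.7. All 3 libraries labelled knockout lay below all 3 of WT, with replicate 3 the lowest. The fall was small, 1.28-fold (log2 fold change -0.36 ± 0.10, SE, 95% interval -0.56 to -0.16, edgeR adjusted p = 0.00353). Without knockout-labelled replicate 3 it was -0.23 (adjusted p = 0.044).

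MUC5AC is the secreted mucin of the stomach surface and the airway. MUC5AC (ENSG00000215182, chromosome 11, 1157953 to 1201138, plus strand) had 113, 104 and 101 counts in WT and 54, 86 and 51 counts in the libraries labelled knockout, or 4.29, 3.87 and 4.53 CPM against 2.76, 3.35 and 1.74 CPM. The groups did not overlap, and the spread was wider in the libraries labelled knockout (SD 0.812 CPM against 0.335). MUC5AC fell 1.63-fold (log2 fold change -0.70 ± 0.20, SE, 95% interval -1.12 to -0.29, edgeR adjusted p = 0.00494). Leaving out knockout-labelled replicate 3 brought it to -0.45 (adjusted p = 0.0496), while leaving out knockout-labelled replicate 2 gave -0.94 (adjusted p = 0.000787).

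MUC5B, the main gel-forming mucin of airway glands and salivary mucous cells, moved the other way. MUC5B (ENSG00000117983, chromosome 11, 1223066 to 1262172, plus strand) had 30, 26 and 29 counts in WT and 70, 91 and 115 in the libraries labelled knockout. Its levels of 1.14, 0.966 and 1.3 CPM in WT stood against 3.58, 3.54 and 3.93 CPM, tight within each group and far apart between them. MUC5B rose 3.26-fold (log2 fold change 1.71 ± 0.21, SE, 95% interval 1.27 to 2.14, edgeR adjusted p = 3.77e-07). Its exons share 434 bases with the antisense gene MUC5B-AS1, which had 0 counts in all libraries. Tested genes with a level of 1 to 4 CPM, as the average of both group means, had a median log2 fold change of 0.26. MUC5B and MUC5AC were among them. Of these 2657 genes, 849 passed the test as higher and 209 (7.87%) as lower, at any fold. A rise of at least 2-fold past the test was seen in 16.3% of them.

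MUC6, the mucin of gastric glands, was read only a few times. On the minus strand of chromosome 11 from 1012821 to 1036706, MUC6 (ENSG00000184956) gave 2, 0 and 0 counts in WT and 3, 4 and 7 in the libraries labelled knockout. Over each group this was 2 against 14 counts, a ratio of 7.1 with an exact binomial 95% interval of 1.63 to 64.3 that covers counting error only. MUC6 did not pass when low genes were left in (edgeR adjusted p = 0.113).

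The opposite changes of MUC5AC and MUC5B turned the order of their reads around, though not clearly in every library. MUC5B reads per MUC5AC read were 0.265, 0.25 and 0.287 in WT and 1.3, 1.06 and 2.25 in the libraries labelled knockout. Every WT library thus had more MUC5AC than MUC5B reads, and every library labelled knockout had more MUC5B. In knockout-labelled replicate 2 the margin was small, with 91 MUC5B and 86 MUC5AC counts. The mean ratio went from 0.268 ± 0.0186 to 1.54 ± 0.633 (SD, n = 3 each, two-sided exact permutation test of log2 ratios, p = 0.1, the smallest that 3 against 3 can give). Divided by gene length, the ratio in knockout-labelled replicate 2 was 0.993, so that per length the order turned in the other 2 libraries only.

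As a share of the length-scaled level (RPKM, the CPM divided by gene length in kilobases) of the 4 gel-forming mucins, MUC5B took 3.44%, 2.7% and 3.78% in WT and 11.6%, 10.9% and 15.7% in the libraries labelled knockout. MUC2 remained the largest share in every library, with 83.4% ± 2.06 in WT and 76.5% ± 1.57 (exact permutation test, p = 0.1). The sum of the 4 mucins was 24.1, 25.8 and 25.1 CPM in WT and 22.8, 24.1 and 18.6 CPM in the libraries labelled knockout. These sums met at 24.1 CPM and did not separate the groups (two-sided exact permutation test, p = 0.2). Per length the sums did separate, with 1.78, 1.93 and 1.85 RPKM in WT against 1.65, 1.75 and 1.34 RPKM (exact permutation test, p = 0.1). In bulk RNA, fewer cells that express a gene and less RNA per cell cannot be told apart.

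**Figure D2:**
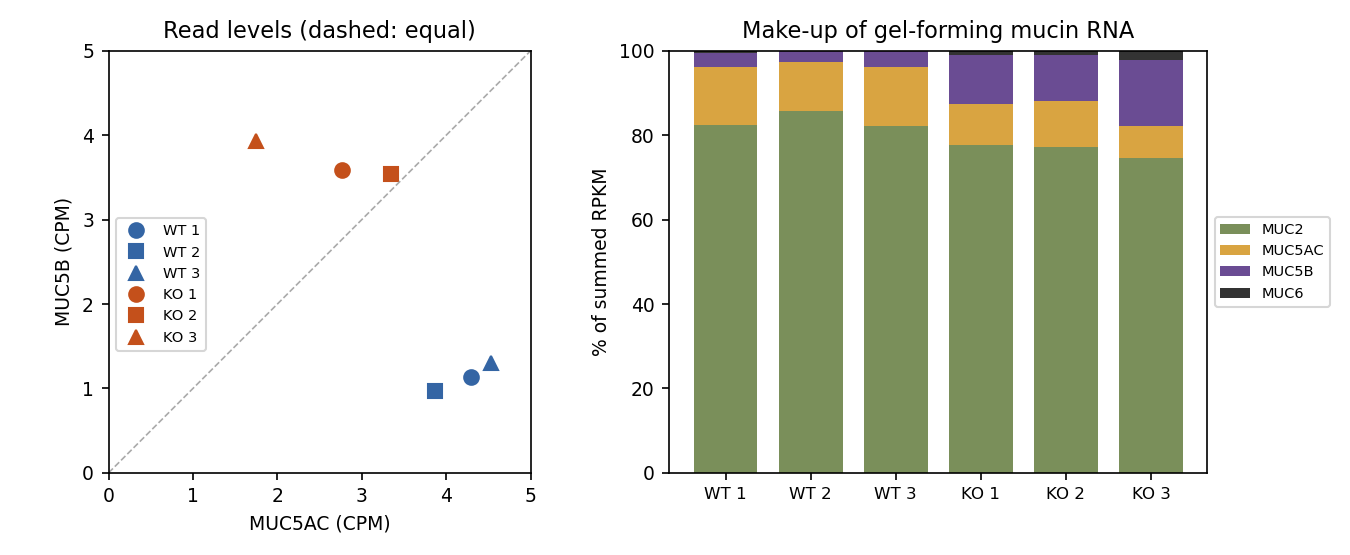
Left, MUC5B against MUC5AC in CPM for each library, with equal levels dashed. Right, share of each mucin in the summed RPKM of the 4 gel-forming mucins, in percent. The 3 WT libraries lie below the dashed line and the 3 labelled knockout above it, while MUC2 makes up 74.7% to 85.8% of the sum in every library.

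The 4 mucin genes lie side by side within 249.4 kb of chromosome 11, yet they did not change as one block. Among the 10 other protein-coding genes within 200 kb of the cluster, 5 were higher, 2 lower and 3 did not pass. TOLLIP, an adaptor of innate immune receptors and the next gene after MUC5B, rose slightly (0.22 ± 0.06 on the log2 scale, SE). AP2A2, a subunit of the clathrin adaptor and the next gene before MUC6, did not pass (0.05 ± 0.06). The neighbour with the largest change was the calcium channel regulator CRACR2B (1.28 ± 0.14).

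**Figure D3:**
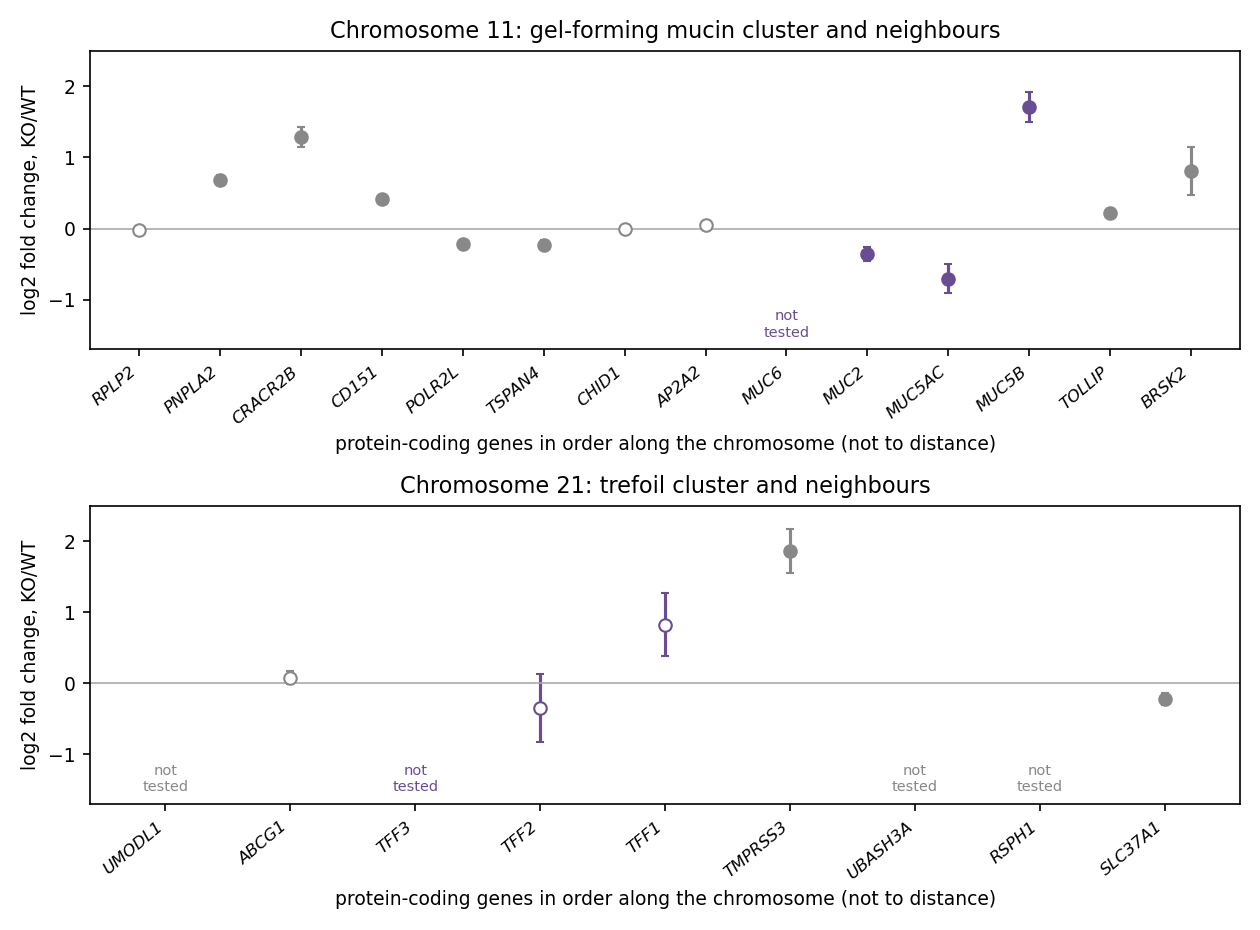
Fitted log2 fold change (bars, SE) of protein-coding genes in chromosomal order around the gel-forming mucins (top) and trefoil factors (bottom), members in purple and neighbours in grey. Filled points passed the test and open points did not. MUC2 and MUC5AC lie below 0 beside MUC5B at 1.71.

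The trefoil factors were close to the limit of detection in all 6 libraries. TFF1 (ENSG00000160182, minus strand of chromosome 21, 42362282 to 42366594), a product of gastric surface cells and an estrogen-induced gene in breast cancer, had 7, 10 and 7 counts in WT and 14, 10 and 18 in the libraries labelled knockout. Its CPM of 0.266, 0.372 and 0.314 stood just below 0.716, 0.389 and 0.615. TFF1 did not pass (log2 fold change 0.83 ± 0.45, SE, 95% interval -0.10 to 1.75, edgeR adjusted p = 0.126), an interval that includes 0.

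TFF2 (ENSG00000160181, minus strand of chromosome 21, 42346357 to 42351128), made by mucous neck cells and gastric glands, had 7, 14 and 10 counts in WT and 5, 10 and 9 in the libraries labelled knockout. The CPM values of the groups overlapped (0.266, 0.52 and 0.448 against 0.256, 0.389 and 0.307), and TFF2 did not pass (log2 fold change -0.35 ± 0.48, SE, 95% interval -1.34 to 0.64, adjusted p = 0.563). At this depth the TFF2 interval spans both a fall and a rise.

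TFF3 (ENSG00000160180, minus strand of chromosome 21, 42311667 to 42315651) is the trefoil factor of intestinal goblet cells. It had 2, 1 and 1 counts in WT and 0 in each library labelled knockout, where a count of 0 over the group allows up to 0.0403 CPM. No fold is given, since each library was under 3 counts. The 3 trefoil genes summed to 0.781 ± 0.163 CPM in WT and 0.891 ± 0.101 CPM in the libraries labelled knockout, ranges that overlapped (exact permutation test, p = 0.5). Of 6 protein-coding genes within 200 kb of them, 3 were tested. ABCG1 did not pass and SLC37A1 was lower. The membrane serine protease TMPRSS3, the next gene after TFF1, rose from 0.487 ± 0.0364 to 1.79 ± 0.142 CPM (log2 fold change 1.86 ± 0.31, SE).

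SPINK4 had the largest fitted change of the 7 tested genes. SPINK4 (ENSG00000122711, chromosome 9, 33218365 to 33248567, plus strand) had 23, 38 and 21 counts in WT and 148, 199 and 228 in the libraries labelled knockout, or 0.873, 1.41 and 0.941 CPM against 7.57, 7.74 and 7.79 CPM. The libraries labelled knockout were nearly identical, while WT replicate 2 stood above the other WT libraries. It rose 7.09-fold (log2 fold change 2.83 ± 0.18, SE, 95% interval 2.45 to 3.20, edgeR adjusted p = 7.41e-12). Without WT replicate 2 the change was 3.08. Genes known to be induced by hypoxia, chosen after their values were seen, moved the same way between the groups. NDRG1 was at 207, 311 and 250 CPM in WT and 659, 718 and 591 CPM in the libraries labelled knockout, and CA9 at 0.531, 1.3 and 0.627 CPM against 8.85, 8.79 and 6.76 CPM. ANGPTL4 was at 0.797, 2.45 and 1.34 CPM against 21.9, 22 and 17.8 CPM. All 3 were higher in every library labelled knockout and, within WT, highest in replicate 2. Among the libraries labelled knockout, all 3 were lowest in replicate 3, while SPINK4 was not lower there. The part of these hypoxia genes in the SPINK4 result was not tested. The span of SPINK4 overlaps that of BAG1 transcripts on the opposite strand, but GENCODE release 29 gives them 0 exonic bases in common. BAG1 itself rose by less (0.87).

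No other SPINK gene behaved in a way that could be called. Of 9 further family members, only SPINK5, the inhibitor of skin kallikreins, was tested, and it did not pass (13.1 ± 1.22 to 15.2 ± 0.249 CPM, log2 fold change 0.21 ± 0.09, SE, adjusted p = 0.0599), although it passed with upper-quartile factors, with the stricter filter and without WT replicate 1. SPINK1, the trypsin inhibitor of pancreatic acinar cells, averaged 0.0124 CPM in WT and 0.145 ± 0.127 CPM in the libraries labelled knockout.

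AGR2 was the best covered of the 10. On the minus strand of chromosome 7 from 16791811 to 16833433, AGR2 (ENSG00000106541) gave 584, 631 and 498 counts in WT and 627, 722 and 1014 in the libraries labelled knockout. Its levels were 22.2, 23.4 and 22.3 CPM in WT and 32.1, 28.1 and 34.6 CPM in the libraries labelled knockout, all 3 of which lay above WT. AGR2 rose 1.40-fold (log2 fold change 0.48 ± 0.08, SE, 95% interval 0.32 to 0.64, edgeR adjusted p = 1.35e-05). Its paralog AGR3 had 0 counts in every library.

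On the minus strand of chromosome 1 from 119794018 to 119811660, REG4 (ENSG00000134193) gave 0 counts in all 6 libraries, which over the whole dataset allows a level of up to 0.020 CPM. Its relatives REG1B and REG3G were at 0 too, and REG1A and REG3A had averages under 1 count. EXTL3, described as a receptor for REG proteins, was well expressed and did not pass (124.0 ± 3.24 to 126.7 ± 6.32 CPM).

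**Figure D4:**
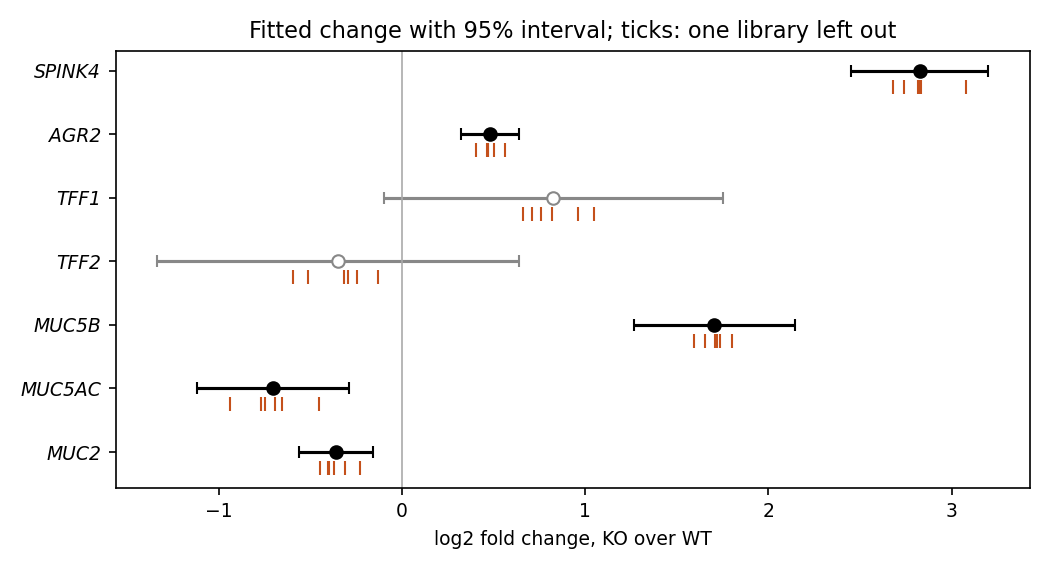
Fitted log2 fold change of the 7 tested genes with 95% intervals, filled where the adjusted p was under 0.05. Orange ticks are the values with each library left out in turn. SPINK4 at 2.83 and MUC5B at 1.71 lie well above 0, MUC2 and MUC5AC below it, and the intervals of TFF1 and TFF2 include 0.

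Per gene length, the order of levels differed between the groups. In WT, AGR2 led with 7.96 ± 0.247 RPKM, followed by SPINK4 (1.64 ± 0.449) and MUC2 (1.55 ± 0.0959), which did not differ beyond their spread. TFF1 (0.575 ± 0.0963) and TFF2 (0.496 ± 0.158) came next and were not distinct either, then MUC5AC (0.242 ± 0.0192). MUC5B (0.061 ± 0.00897) and TFF3 (0.0451 ± 0.0176) overlapped. In the libraries labelled knockout, SPINK4 (11.8 ± 0.171 RPKM) stood level with AGR2 (11.1 ± 1.16), and MUC2 (1.21 ± 0.184) with TFF1 (1.04 ± 0.304). TFF2 (0.382 ± 0.0809) followed, and MUC5B (0.198 ± 0.0114) and MUC5AC (0.15 ± 0.0465) were not distinct. Among the genes tested, SPINK4 thus moved from percentile 36.6 to 75 of mean RPKM, AGR2 from 66.2 to 73.8 and MUC5B from 1.99 to 6.57.

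The authors' deposited table gave log2 fold changes of 2.82 for SPINK4, 1.70 for MUC5B, 0.47 for AGR2, -0.37 for MUC2 and -0.71 for MUC5AC. The same 5 genes have adjusted p-values under 0.05 in it, the highest being 0.0183 for MUC5AC.

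Likeness of pattern over the 6 libraries was described by Pearson's r of log2 CPM for 10814 protein-coding genes averaging 100 counts or more. All points share the difference between the groups, and r takes no account of its size. The genes most like SPINK4 were SQLE, PNMA1 and ESYT2 (r = 0.9996 to 0.9997). For AGR2 they were the tetraspanin CD63 (0.999), TMEM173 and ZNF524, and for MUC2 they were LANCL2 (0.9941), HIPK2 and SGTB.

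Genes that define mature goblet cells were mostly silent. ATOH1, the transcription factor that commits intestinal cells to the secretory lineage, averaged under 1 count, as did CLCA1 and ZG16, abundant products of intestinal goblet cells. ITLN1 and AGR3 were at 0. Of 22 further goblet products listed, 15 were too low to test, 4 rose, 3 did not pass and 0 fell. Those that rose were ZG16B (0.734 ± 0.147 to 2.61 ± 0.0734 CPM), the sialyltransferase ST6GALNAC1 (3.38 ± 0.491 to 9.6 ± 0.407), the O-glycan initiating enzyme GALNT12 (5.45 ± 0.498 to 15 ± 0.833) and the kallikrein KLK1 (1.49 ± 0.159 to 2.62 ± 0.258). Their log2 fold changes ran from 0.80 to 1.83. Of 5 other secreted mucins and mucus glycoproteins listed, 3 were tested, of which 2 rose (DMBT1 and FCGBP) and 1 did not pass. The latter, OVGP1, went from 1.04 ± 0.111 to 0.757 ± 0.0595 CPM (log2 fold change -0.45 ± 0.32, SE, edgeR adjusted p = 0.248), and MUC7 and MUC19 were too low to test. DMBT1, a scavenger receptor of mucosal fluids, had 258, 304 and 275 counts in WT against 642, 935 and 1018, and went from 11.1 ± 1.27 to 34.7 ± 1.76 CPM (log2 fold change 1.64 ± 0.08, SE). FCGBP, which binds to MUC2 in mucus, had 269, 344 and 257 counts against 360, 540 and 514, and went from 11.5 ± 1.29 to 19.0 ± 1.8 CPM (0.72 ± 0.10).

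Transcription factors known from goblet and other mucous cells were largely present, and 13 of 22 tested rose, 4 fell and 5 did not pass (median 0.36). By size of change the first were FOXA3 (2.10 ± 0.41 on the log2 scale, SE, at only 0.317 ± 0.216 CPM in WT), SOX2 (1.67 ± 0.09), the epithelial factor ELF3 (1.51 ± 0.06) and GATA5 (1.36 ± 0.34). SOX2 went from 10.7 ± 1.41 to 34.3 ± 2.71 CPM. Chosen after their values were seen, SPDEF, a driver of goblet maturation, had 319, 407 and 360 counts in WT and 440, 545 and 658 in the libraries labelled knockout (0.61 ± 0.09), and FOXA2 had 1527, 1552 and 1367 against 552, 685 and 733. FOXA2, a forkhead factor of endoderm, thus fell (-1.15 ± 0.06) while its relatives FOXA1 (0.70 ± 0.10) and FOXA3 rose.

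Folding factors of the endoplasmic reticulum, where AGR2 works, changed little. Of 23 tested, 7 rose, 3 fell and 13 did not pass, with a median of 0.06. The lectin chaperone CANX fell (-0.45 ± 0.04, SE), and the oxidase ERO1A (0.39 ± 0.04), HSP90B1 (0.38 ± 0.04) and PDIA5 (0.23 ± 0.08) rose. The summed level of the list was 8210 to 8230 CPM in WT and 8160 to 8450 CPM in the libraries labelled knockout, ranges that overlap.

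Genes of regulated granule release were 11 higher, 3 lower and 10 not passed of 24 tested (median 0.13). MARCKS, the kinase substrate that links mucin granules to the cell cortex, went from 103.4 ± 4.43 to 184.0 ± 0.912 CPM. Its relative MARCKSL1 (0.82 ± 0.06 on the log2 scale, SE) and the granule effector SYTL2 (0.92 ± 0.18) were higher as well, and the small GTPase RAB3B was lower (-0.95 ± 0.34). Transporters and channels that set the hydration of mucus were 6 higher, 3 lower and 2 not passed of 11 tested (median 0.54). The water channel AQP3 went from 473.5 ± 70.0 to 821.4 ± 10.3 CPM and the sodium channel subunit SCNN1A from 111.3 ± 5.87 to 208.1 ± 7.95 CPM, with KCNQ1 (1.21 ± 0.27) and SLC26A9 (0.77 ± 0.21) also higher. The 3 that were lower were ANO1 (-0.18 ± 0.04), SLC12A2 (-0.21 ± 0.05) and SLC26A6 (-0.30 ± 0.06). SCNN1B and SCNN1G, the other sodium channel subunits listed, were too low to test.

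Of receptors proposed for trefoil factors, 4 of 5 tested rose and 1 fell. CXCR4, a chemokine receptor reported to respond to TFF2, had 10, 9 and 6 counts in WT and 31, 65 and 74 in the libraries labelled knockout, a change of 2.74 ± 0.33 on the log2 scale (SE, edgeR adjusted p = 2.36e-07). ACKR3 (1.76 ± 0.31), LINGO2 (0.99 ± 0.25), a proposed TFF3 receptor, and F2RL1 (0.28 ± 0.06) were higher. EGFR fell, from 367.6 ± 12.3 to 316.3 ± 22.6 CPM. The shares called in these lists stand beside 26.7% higher and 25.9% lower over all genes tested. Those overall shares changed with level. Under 1 CPM 20.3% were higher and 4.95% lower, and at 4 to 16 CPM 34.5% and 17.7%. Of 3869 genes over 64 CPM, 852 were higher and 1931 lower. More rises than falls were thus common among genes of low level, and the lists were not compared with genes of matched level.

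**Figure D5:**
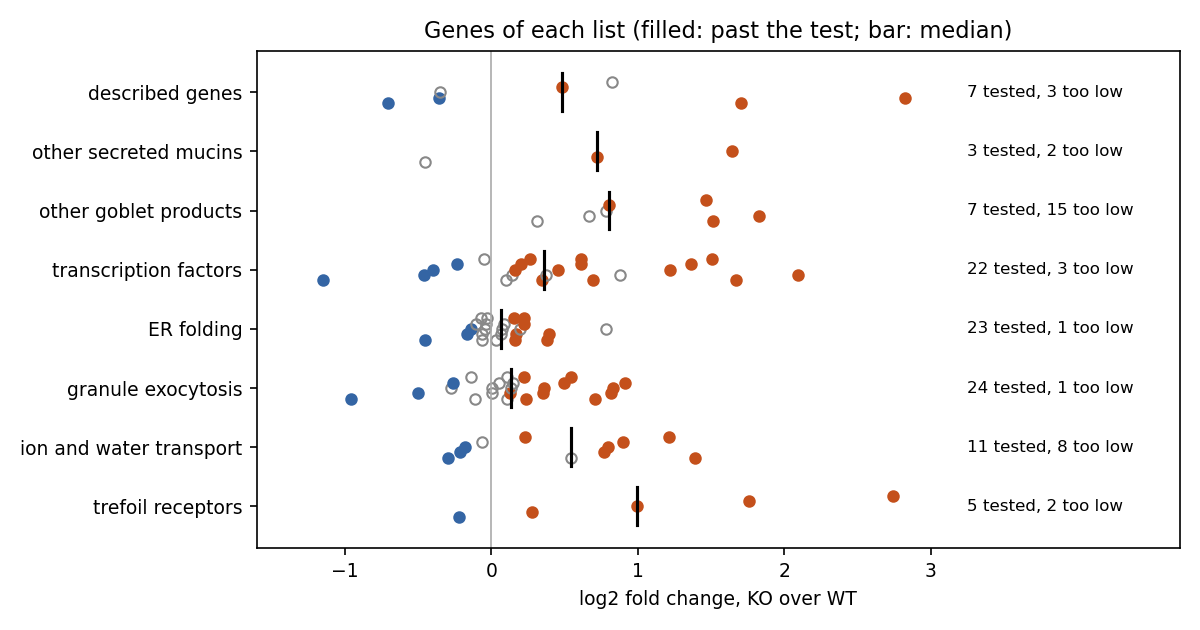
Fitted log2 fold change of every tested gene in the members and 7 related lists, filled where the adjusted p was under 0.05 (orange higher, blue lower) and open otherwise, with the list median as a bar. Transcription factors and goblet products lie mostly to the right of 0, and folding factors of the endoplasmic reticulum cluster around it (median 0.06).

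Markers of other cells that could make these products were set beside the results. Gastric surface genes went both ways: PSCA rose (22.1 ± 3.46 to 92.3 ± 9.1 CPM), ANXA10 (-0.42 ± 0.06, SE) and VSIG1 (-1.39 ± 0.27) fell, and GKN1, GKN2 and PGC averaged under 1 count. All 7 tested ductal and epithelial markers rose, with a summed level of 3520 to 3600 CPM in WT and 5530 to 5790 CPM in the libraries labelled knockout. Acinar genes were at or near 0 apart from the lipase CEL, which fell from 22.7 ± 4.39 to 12.0 ± 0.614 CPM. Of 6 leukocyte markers 5 were too low to test, and their sum was 0.114 to 0.372 CPM in WT and 1.02 to 1.4 CPM in the libraries labelled knockout, in the latter mostly lysozyme, LYZ. Fibroblast markers summed to 33.9 to 36.9 and 46.5 to 51.6 CPM, mostly COL1A1, with POSTN at 0. Of 3 fibroblast markers tested, 2 rose and 1 did not pass. Endothelial markers summed to 13.4 to 16.6 and 19.7 to 22 CPM, mostly PECAM1, and endocrine markers to 1.38 to 1.9 and 1.23 to 1.84 CPM. All 3 tested endothelial markers rose, and the 2 tested endocrine markers did not pass. Rises were thus not confined to the ductal and epithelial list. The part of the ductal and epithelial marker rise in the changes of SPINK4, MUC5B and AGR2 was not tested.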

How the data were processed

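The authors deposited raw read counts per gene, with 1 column for each library. The submitters' processing notes name the tools fastp, HISAT2, STAR and DESeq, with builds listed as GRCh38 and hg38. Tool versions, the role of each and the read counter are not given there or elsewhere in the sources used here. The library kit named in the labels' protocols does not mark strand. A second table from the authors, per its file headers, holds normalised signal, FPKM, log2 fold changes and p-values; its signal and FPKM columns were not used, and its count columns equal the main table for 29015 genes.

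The main test was edgeR's quasi-likelihood test (edgeR 4.0.16, R 4.3.3) on these counts, two-sided, with a model of group alone, TMM factors and a low-count filter (filterByExpr with minimum count 10 and minimum total 15), with Benjamini-Hochberg adjustment over 16655 genes and a threshold of 0.05. Standard errors came from the F statistic, and 95% intervals from its degrees of freedom. RPKM is TMM-scaled CPM per kilobase of the deposited gene length. No library looked like a repeat deposit: replicate pairs differed beyond sampling noise, with a chi-square of 2.44 to 6.17 per degree of freedom. The edgeR step was tested on simulated data. The members, lists and motifs were chosen with earlier results of these data known. Named list genes are up to 4 per list with the largest change past the threshold and a mean of at least 20 counts, plus the highest markers; others were named after their values were seen, among them GATA4, GATA6, FOXA1, SPINK1, SPINK5, EXTL3, EGFR and the genes near 0. Alternatives were DESeq2 1.42.0, limma-voom (limma 3.58.1), other factors, filters, a replicate block, protein-coding genes alone and leaving out each library. A listed marker is not reported here.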

Additional observations from a re-analysis of the deposited data

How the results depend on the processing

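The 3 rises and 2 falls among the members were the same counts in all 14 alternatives, and all 96 member values kept their direction and their side of the threshold, although TFF1 and TFF2 had too few counts for the stricter filter (50 counts in 3 libraries) and got no value there. The closest to the threshold was MUC5AC without knockout-labelled replicate 3 (adjusted p = 0.0496). Over all genes, 4442 higher and 4317 lower became 5125 and 3505 with upper-quartile factors, 4386 and 4378 with DESeq2 size factors, and 3632 and 3914 with DESeq2. Leaving out 1 library gave 3980 to 4182 higher and 3872 to 4108 lower. A replicate block gave 4270 and 4172, left the members at 3 and 2, and changed no call among them. The replicate numbers showed no sign of pairing. Deviations of same-numbered libraries correlated at 0.0116, 0.0205 and -0.024, and libraries did not all correlate best with their own number. Such correlations cannot show whether same-numbered samples were grown or prepared together. Of 448 list counts under alternatives, 439 stayed within 1.5 times. The 9 others were counts of 0 to 4 genes, 5 of them under the stricter filter, which tests fewer genes; SPINK5 passed with upper-quartile factors, under the stricter filter and without WT replicate 1. Depth limits MUC6, TFF1, TFF2, TFF3 and REG4, which had 66 counts or fewer over all libraries.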
